A study of Mus musculus with 2 samples.

Results

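The Rag1 and Rag2 genes share 1 locus on mouse chromosome 2, described here from DNase-seq of thymus. The members were the genes Rag1 (ENSMUSG00000061311, chr2:101638282-101649501, minus strand) and Rag2 (ENSMUSG00000032864, chr2:101624718-101632529, plus strand) on mm10. They face each other, with their 3′ ends 5.75 kb apart. A window from 100 kb before the first gene to 100 kb after the last, chr2:101524718-101749501, was taken as the locus. It held 130 of the 127552 peaks of replicate 1 and 31 of the 67270 peaks of replicate 2, and 294 of 363775 and 89 of 203939 footprints in the same libraries.

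The study measured thymus of 2 female B6CASTF1/J mice aged 25 days, with 1 library per animal. B6CASTF1/J mice are hybrids with 1 parent from C57BL/6J and the other from CAST, so each animal carries 1 Rag allele of each parent, and the files do not separate the alleles. The labels give no treatment and no second group, so no comparison of conditions exists and no test was made. Whole thymus was used, so fewer cells of a type and less signal per cell cannot be told apart.

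Rag1 and Rag2 proteins together form the recombinase that cuts DNA at recombination signal sequences and so starts V(D)J recombination, the joining of antigen receptor gene segments. Developing T cells in the thymus use it for the T cell receptor genes, first at the double-negative stage and again at the CD4+ CD8+ double-positive stage. In mice, expression of both genes in lymphocytes depends on distal elements on the Rag2 side of the locus, with different elements used in T and B cells. DNase I cuts open chromatin, so a peak marks accessible DNA, and a footprint is a short protected stretch inside it. None of these readouts measures transcription.

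The locus also holds parts of 3 other protein-coding genes. B230118H07Rik (minus strand) spans chr2:101560781-101649532 and so contains both Rag genes, and its annotated start lies 31 bp from that of Rag1. The peak at the Rag1 start therefore cannot be assigned to one of these genes. Traf6 (chr2:101678429-101701669), which encodes a ubiquitin ligase of cytokine and Toll-like receptor signalling, begins beyond Rag1, and Prr5l (chr2:101714285-101883027), which encodes a protein that binds the mTORC2 kinase complex, lies beyond Traf6. Positions below are given in kb from the Rag2 start to the middle of the site, positive towards Rag1.

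Both Rag promoters are shown as the 250 bases before the RefSeq start (RefSeq, GRCm38.p6), 5′ to 3′ on the gene's strand. Capitals mark bases lying in footprints of both libraries. The sequence is the C57BL/6J reference.
Rag1 promoter, chr2:101649533-101649782, minus strand: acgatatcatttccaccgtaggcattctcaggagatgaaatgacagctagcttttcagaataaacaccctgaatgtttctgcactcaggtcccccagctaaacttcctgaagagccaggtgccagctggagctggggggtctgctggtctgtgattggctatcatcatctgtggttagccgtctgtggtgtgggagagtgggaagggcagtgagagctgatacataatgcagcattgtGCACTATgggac
Rag2 promoter, chr2:101624462-101624711, plus strand: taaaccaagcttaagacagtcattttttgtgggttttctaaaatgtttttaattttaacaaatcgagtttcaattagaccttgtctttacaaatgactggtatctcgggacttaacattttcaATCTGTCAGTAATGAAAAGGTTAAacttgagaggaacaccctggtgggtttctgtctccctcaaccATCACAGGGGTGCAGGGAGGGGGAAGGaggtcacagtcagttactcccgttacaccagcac
The Rag1 stretch had 50.8% G and C and the Rag2 stretch 41.2%, each with 3 CpG, against medians of 52.4% and 6 CpG over 32851 RefSeq promoters. In the Rag2 stretch 51 bases lay in footprints of both libraries, and in the Rag1 stretch 7.

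The other 6 sequences are peaks of replicate 1 that overlap a peak of replicate 2. The first 3 were dense in both libraries, and the last 3 were dense mainly in replicate 1. Each is mm10 reference, plus strand, with capitals as above.
Site at -73.2 kb, chr2:101551391-101551690, plus strand: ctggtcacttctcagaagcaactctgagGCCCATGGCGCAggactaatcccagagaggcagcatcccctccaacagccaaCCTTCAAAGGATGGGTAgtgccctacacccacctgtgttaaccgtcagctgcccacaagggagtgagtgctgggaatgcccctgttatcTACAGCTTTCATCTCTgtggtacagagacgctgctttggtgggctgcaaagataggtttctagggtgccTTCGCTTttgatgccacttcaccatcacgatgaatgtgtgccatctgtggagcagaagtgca
Site at -72.1 kb, chr2:101552481-101552660, plus strand: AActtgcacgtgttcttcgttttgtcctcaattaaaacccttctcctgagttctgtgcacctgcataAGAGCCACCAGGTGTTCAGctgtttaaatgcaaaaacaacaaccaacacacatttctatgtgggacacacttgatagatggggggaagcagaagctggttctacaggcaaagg
Site at -16.0 kb, chr2:101608601-101608800, plus strand: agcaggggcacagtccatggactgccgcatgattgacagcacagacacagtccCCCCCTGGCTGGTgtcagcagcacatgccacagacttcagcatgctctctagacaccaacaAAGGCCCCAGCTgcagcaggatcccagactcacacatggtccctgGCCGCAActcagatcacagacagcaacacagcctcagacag
Site at -80.8 kb, chr2:101543781-101543960, plus strand: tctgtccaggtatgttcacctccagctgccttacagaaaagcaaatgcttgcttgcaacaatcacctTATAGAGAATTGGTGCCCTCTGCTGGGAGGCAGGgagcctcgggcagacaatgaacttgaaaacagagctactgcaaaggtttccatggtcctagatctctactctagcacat
Site at 28.3 kb, chr2:101652961-101653120, plus strand: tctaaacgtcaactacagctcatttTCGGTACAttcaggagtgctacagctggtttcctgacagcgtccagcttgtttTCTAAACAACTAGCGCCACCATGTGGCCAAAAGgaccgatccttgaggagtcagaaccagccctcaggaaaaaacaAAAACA
Site at 40.8 kb, chr2:101665381-101665560, plus strand: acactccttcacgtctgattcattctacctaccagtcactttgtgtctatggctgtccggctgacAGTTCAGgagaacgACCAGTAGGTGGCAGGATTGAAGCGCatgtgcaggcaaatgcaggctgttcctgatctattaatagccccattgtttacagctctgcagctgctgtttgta
The letters of 12 short consensus motifs were searched on both strands. A match is a description of the letters only.

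The start of each Rag gene carried a peak in both libraries, as did 61.7% (replicate 1) and 55.1% (replicate 2) of the 21938 protein-coding genes. The peak values are the authors' signal density, whose scaling is not stated, so they are read mainly within a library. The Rag1 promoter peak had a density of 8.72 in replicate 1 and 14.5 in replicate 2, at percentiles 92.2 and 96.7 of each library's own list. The Rag2 promoter peak had a density of 9.40 in replicate 1 and 8.39 in replicate 2, at percentiles 92.8 and 92.0. Both promoters thus ranked near the top of their lists in both animals. Rag2 was the denser of the pair in replicate 1 and Rag1 in replicate 2, where the Rag2 peak had 0.577 of the Rag1 density, against 1.08 in replicate 1.

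The Rag1 promoter letters held both E-box forms searched, CAGCTG (in 13.0% of all promoter stretches) and CACCTG (17.2%), the letters bound by E proteins. They also held the RUNX core TGTGGT at 2 places (14.0%), and one match each to the ETS letters GGAAGT (19.7%), the Ikaros letters TGGGAA (21.6%) and the NFY letters CCAAT (33.8%). None of these matches lay in footprint bases shared by the libraries. The Rag2 promoter held 2 matches to the MYB letters TAACNG (19.8%) and none to the other motifs searched, and its shared footprints lay apart from those matches.

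**Figure D1:**
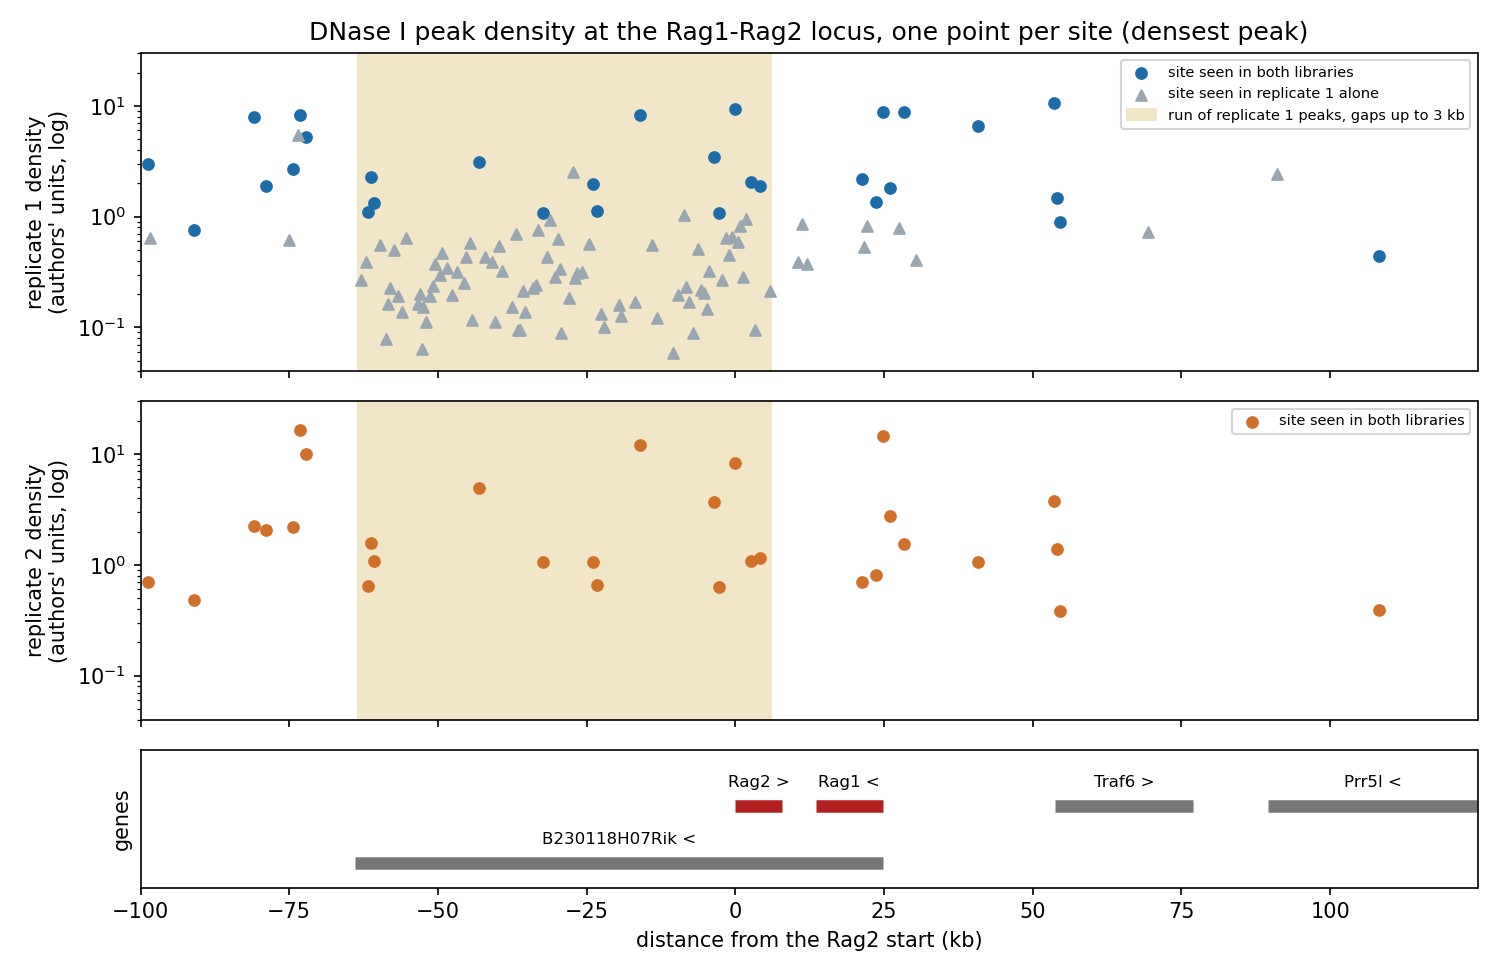
Sites along the Rag1-Rag2 locus, replicate 1 above replicate 2, as signal density (authors' units, log axis) against distance from the Rag2 start in kb. Each point is the densest peak of a site, circles being the 30 sites seen in both libraries and triangles the 93 seen in replicate 1 alone, and the shaded stretch is a 69.3 kb run of replicate 1 peaks at most 3 kb apart; the promoter peaks of both Rag genes stand among the densest in each.

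Overlapping peaks of both libraries merged into 123 sites, of which 30 were seen in both libraries, 93 in replicate 1 alone and 0 in replicate 2 alone. All 31 peaks of replicate 2 overlapped a peak of replicate 1 (100%, exact 95% binomial interval 88.8 to 100), beside 88.8% of all its peaks. In replicate 1, 32 of 130 peaks had a partner (24.6%, 17.5 to 32.9), beside 46.9% of all its peaks. These intervals cover counting error only. Across the 30 shared sites, the log10 densities of the libraries had a Pearson r of 0.788 and a Spearman rho of 0.802, as a description over sites of the same 2 libraries.

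Upstream of Rag2, beyond the 3′ end of B230118H07Rik, a pair of neighbouring sites ranked higher in replicate 2 than in replicate 1. The -73.2 kb site had a density of 8.33 in replicate 1 and 16.5 in replicate 2, and was the densest peak of replicate 2 in the locus. The -72.1 kb site had 5.26 in replicate 1 and 10.01 in replicate 2. In units of the Rag1 promoter of the same library, the -73.2 kb site had 0.955 in replicate 1 and 1.13 in replicate 2, and the -72.1 kb site 0.603 and 0.689. Both thus kept close to the same height relative to Rag1 in the 2 animals, but this depends on the reference. By the ratio of replicate 1 to replicate 2 density, the Rag1 promoter itself ranked at percentile 1.57 of all overlapping pairs. Both sites were less dense than the Rag2 promoter in replicate 1 (9.40) and denser than it in replicate 2 (8.39).

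The -73.2 kb sequence held the TCF/LEF letters CTTTGA (in 13.1% of 200-bp windows centred on replicate 1 peaks) wholly inside footprint bases of both libraries. It also held both E-box forms, the RUNX core, the GATA letters AGATAA (6.54%), the Ikaros letters and 2 matches to the MYB letters, with at most 1 base of any of them in a shared footprint. In the -72.1 kb sequence 1 of 2 CACCTG matches (23.9% of windows) lay wholly in shared footprint bases, and CAGCTG (16.9%) had 3 bases there. The windows are 200 bp and the printed peaks differ in length, so these shares are a guide only.

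Nearer to Rag2, within the introns of B230118H07Rik, the -16.0 kb site had a density of 8.35 in replicate 1 and 12.1 in replicate 2, or 0.957 and 0.834 of the Rag1 promoter. Its CAGCTG match had 5 of its bases in a shared footprint. The -43.1 kb site had 3.09 in replicate 1 and 4.92 in replicate 2, or 0.355 and 0.339 of Rag1. The -3.61 kb site, close to the Rag2 promoter, had 3.46 in replicate 1 and 3.67 in replicate 2. These 3 sites were the densest shared sites between the 3′ end of B230118H07Rik and the Rag2 promoter in both libraries.

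A different set of sites stood near the height of the Rag1 promoter in replicate 1 and well below it in replicate 2. The -80.8 kb site had a density of 7.89 in replicate 1 and 2.23 in replicate 2, or 0.904 and 0.153 of the Rag1 promoter. The 28.3 kb site, just beyond the Rag1 start, had 8.82 in replicate 1 and 1.56 in replicate 2, or 1.01 and 0.107 of Rag1. The 40.8 kb site had 6.56 in replicate 1 and 1.07 in replicate 2, or 0.753 and 0.0735 of Rag1. The Traf6 promoter followed the same order, with 10.5 in replicate 1, its densest peak in the locus, and 3.77 in replicate 2.

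The CTCF consensus (12.8% of windows) matched in the -80.8 kb and 40.8 kb sequences, each with all 12 bases in footprints of both libraries. CTCF is a zinc-finger protein that anchors chromatin loops. A further match lay at the 21.3 kb site in a Rag1 intron, with a density of 2.18 in replicate 1 and 0.702 in replicate 2. The 28.3 kb sequence held CAGCTG and no exact match to the other motifs. Near matches were not counted, so this does not show that a site lacks CTCF-like letters. The -80.8 kb and 40.8 kb sequences also held CAGCTG, outside shared footprints. The NFY letters (20% of windows) lay wholly in shared footprint bases of the -80.8 kb sequence, and the FOXO letters TGTTTAC (2.33%) lay outside them in the 40.8 kb sequence.

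**Figure D2:**
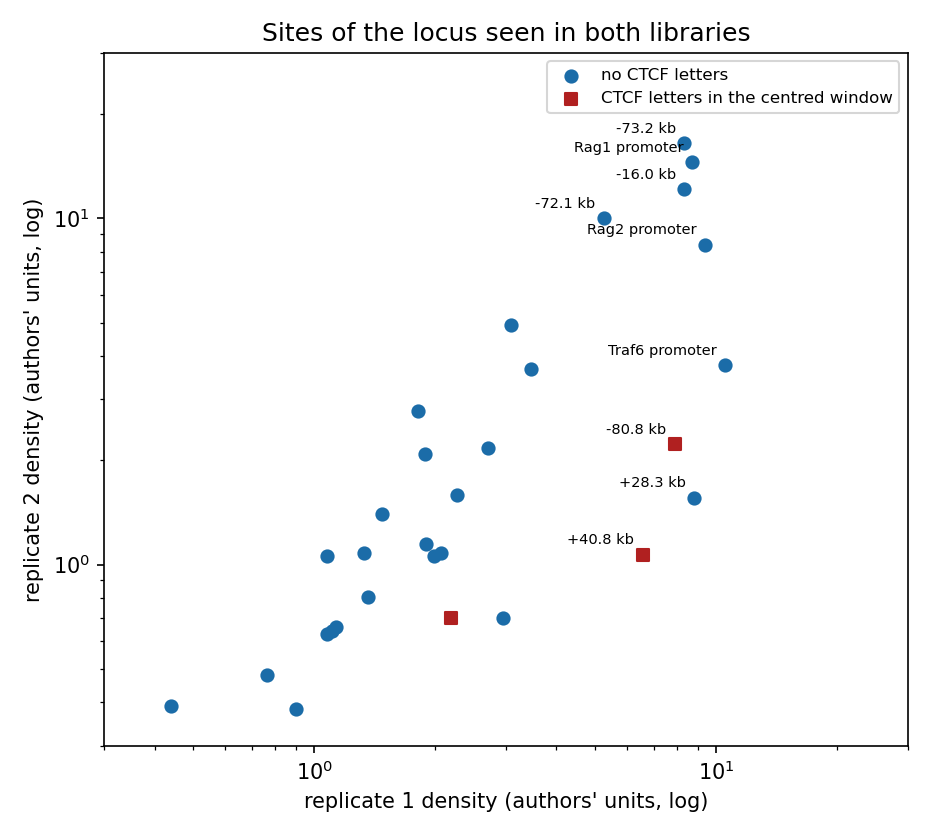
Signal density of the 30 sites seen in both libraries, replicate 1 against replicate 2 (authors' units, both axes log). The -73.2 kb, -72.1 kb and Rag1 promoter sites lie on the replicate 2 side of equal density and the 28.3 kb, 40.8 kb and Traf6 promoter sites far on the replicate 1 side.

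Because a constant scaling cannot change ranks, the log2 ratio of replicate 1 to replicate 2 density at each shared site was ranked among all 59843 overlapping pairs of the genome, whose median was 0.66. Of the 30 shared sites, 6 ranked below the 5th percentile and 6 above the 80th. These limits were chosen after the values were seen. By definition 5% of all pairs lie below the first limit. The 6 sites above the second limit were no larger a part of the 30 than such pairs are of all pairs. The low group lay between -73.2 and 26.0 kb, with log2 ratios of -0.99 to -0.54, and was made of the -73.2, -72.1, -43.1, -16.0 and 26.0 kb sites and the Rag1 promoter. The high group had log2 ratios of 1.48 to 2.62 and was made of the -98.8, -80.8, 21.3, 28.3 and 40.8 kb sites and the Traf6 promoter.

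The Rag2 promoter lay between these groups at percentile 22.9 (log2 ratio 0.16) and the -3.61 kb site at 12.9. Exact matches to the CTCF letters were in 3 sites of the high group and 0 of the low group. Over the genome, 5245 pairs with these letters had a median log2 ratio of 2.38, against 0.59 for the others, so the 3 sites moved with a difference between the libraries that is not particular to the locus. Whether it bears on the other sites of the high group was not tested.

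The remaining shared sites were all less dense than both Rag promoters. Beyond the 3′ end of B230118H07Rik, the -90.9, -78.9 and -74.3 kb sites had densities of 0.762, 1.89 and 2.71 in replicate 1 and of 0.480, 2.08 and 2.18 in replicate 2. Within that gene and before Rag2, 7 further shared sites between -61.7 and -2.81 kb had densities of 1.07 to 2.27 in replicate 1 and 0.630 to 1.59 in replicate 2. Inside Rag2, the 2.69 kb site had 2.07 in replicate 1 and 1.08 in replicate 2, and the 4.21 kb site 1.89 and 1.15. Inside Rag1, the 23.7 kb site had 1.36 in replicate 1 and 0.804 in replicate 2. In the intergenic DNA, the -98.8 kb site had 2.96 in replicate 1 and 0.702 in replicate 2, and the 26.0 kb site, near the Rag1 start, had 1.81 and 2.77. Past the Traf6 start, the 54.1, 54.6 and 108.2 kb sites had 1.47, 0.899 and 0.439 in replicate 1 and 1.40, 0.384 and 0.390 in replicate 2. The shared sites inside both Rag gene bodies were thus less dense than either Rag promoter in both libraries.

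Each Rag gene has 1 long exon that holds coding sequence. The long Rag1 exon (chr2:101638282-101644809, 6528 bp) held 0 peaks and 0 bases with a false discovery rate below 0.05 in both libraries. The long Rag2 exon (chr2:101629322-101632529, 3208 bp) held 1 peak and 93 such bases in replicate 1, and 0 peaks and 0 bases in replicate 2. Only bases below 0.05 are listed in the files, so lower accessibility there has no value.

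Over 200-bp windows centred on the 30 shared sites, CAGCTG occurred in 11 (36.7%, beside 16.9% of all replicate 1 peak windows), CACCTG in 9 (30%, beside 23.9%) and either E-box in 16 (53.3%, beside 36.2%). The RUNX core TGTGGT occurred in 12 (40.0%, beside 19.2%). The ETS letters occurred in 3 (10%, beside 20.1%) and the SP/KLF letters GGGCGG in 2 (6.67%, beside 17.9%). The GATA letters occurred in 1 (3.33%, beside 6.54%), the TCF/LEF letters in 3 (10%, beside 13.1%) and the CTCF letters in 3 (10%, beside 12.8%). The NFY letters were found in 5 (16.7%, beside 20%) and the FOXO letters in 2 (6.67%, beside 2.33%). The Ikaros letters were found in 6 (20%, beside 16.9%) and the MYB letters in 6 (20%, beside 17.4%). The 30 sites were seen in both libraries, whereas only 46.9% of all replicate 1 peaks had a partner, so the 2 sets are unlike. These shares over few sites were not tested and cannot be read as a trait of the locus.

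In replicate 1 much of the DNA before Rag2 was listed as accessible, which it was not in replicate 2. Between the 3′ end of B230118H07Rik and the Rag2 start, over 63.9 kb, replicate 1 had 91 peaks, or 14.2 per 10 kb, against 11 peaks and 1.72 per 10 kb in replicate 2. Bases with a false discovery rate of the cut rate below 0.05, a measure per base of cutting beyond the authors' background, covered 63.0% of this stretch in replicate 1 and 5.17% in replicate 2. Before that stretch the libraries were close to each other, at 9.37% in replicate 1 and 7.61% in replicate 2.

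Joining peaks at most 3 kb apart, a rule chosen after the data were seen, gave a single run of 100 peaks of replicate 1 over 69.3 kb. It began at chr2:101561341, just inside the 3′ end of B230118H07Rik, and ended at chr2:101630680, 5.96 kb past the Rag2 start. Of 66569 runs of replicate 1 in the genome it had the most peaks and was the longest, ahead of a run of 63 peaks over 44.1 kb. The run of replicate 2 at the Rag2 start had 5 peaks over 8.1 kb. With the replicate 1 list reduced to the length of the replicate 2 list by density, the longest run at the locus had 10 peaks over 10.3 kb, and in the shorter deposited list it had 65 peaks over 50.4 kb.

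The peaks of the run were weak ones. Their median density was 0.291, and 82 of 100 lay below the median of the library's list. A partner in replicate 2 was found for 14 of them, and the other 86 had a median density of 0.246. Outside the run, 18 of the 30 replicate 1 peaks of the locus had a partner (60.0%). The 13 replicate 2 peaks within the run all had one.

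The first edge of the run was abrupt in replicate 1. In the 5 kb inside it, 87.3% of bases were below 0.05 in replicate 1 and 21.8% in replicate 2, and in the 5 kb outside it 0.94% and 0%. At the last edge, past the Rag2 start, the values were 51.7% in replicate 1 and 7.04% in replicate 2 inside, and 13.8% and 0% outside. Repeat-masked letters made up 19.7% of the run, and 52.9% of these were listed in replicate 1 against 65.7% of the unmasked letters.

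**Figure D3:**
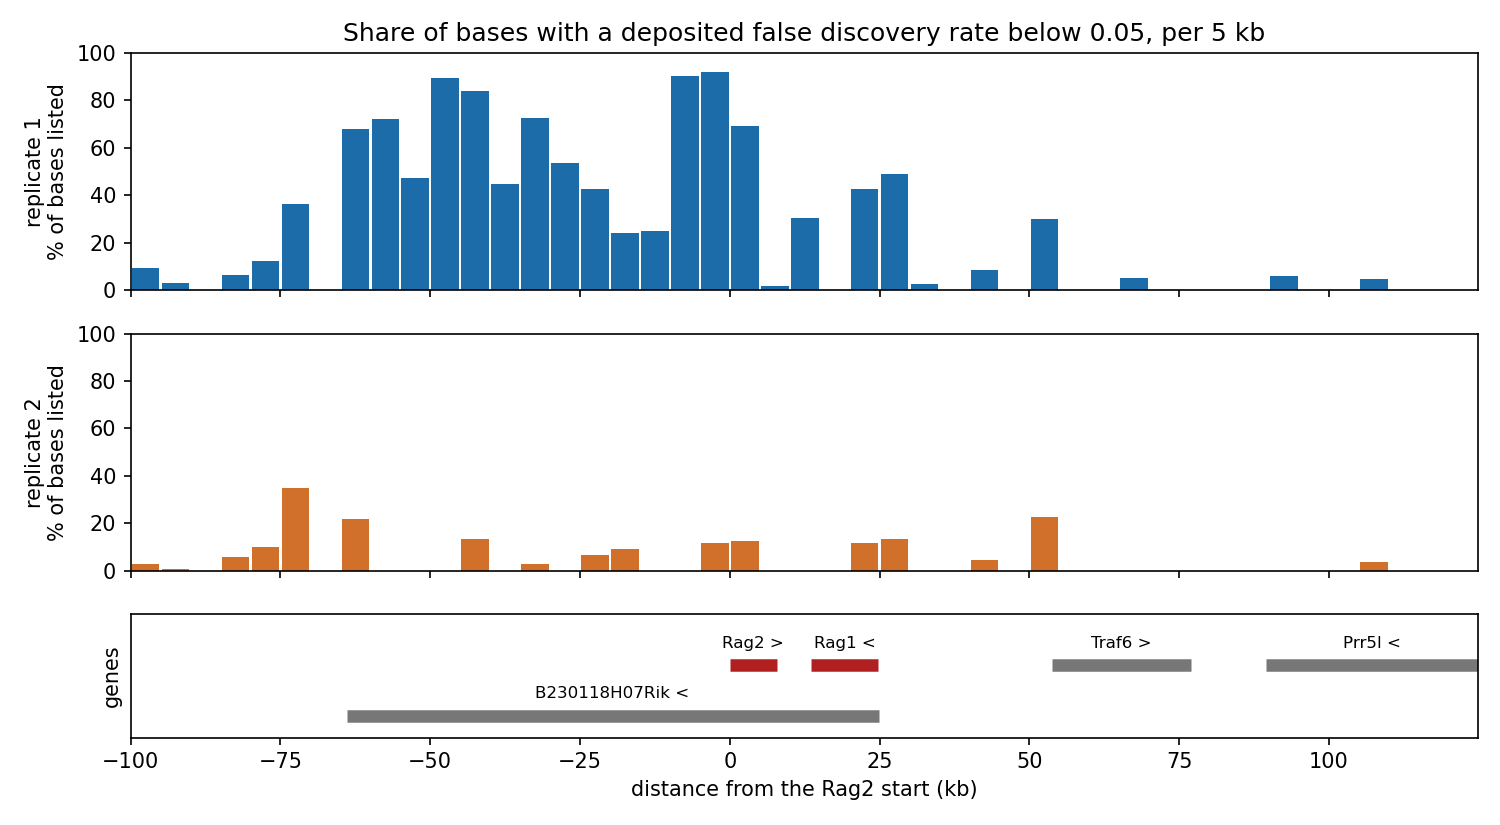
Percent of bases with a deposited false discovery rate below 0.05 in 5-kb bins along the locus, for both libraries, against distance from the Rag2 start in kb. Of 44 bins, 19 reached 20% in replicate 1 and 3 in replicate 2, and the replicate 1 bins of the run before Rag2 range between 24.1% and 92.1%.

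From Rag1 onwards the peak counts of the libraries were nearer than within Rag2. The Rag2 gene held 9 peaks in replicate 1 and 2 in replicate 2, with 45.5% and 8.08% of its bases below 0.05. The Rag1 gene held 4 and 2 peaks, with 17.1% and 3.31% of bases. The stretch between the 3′ ends held 3 peaks in replicate 1 and 0 in replicate 2, the stretch from the Rag1 start to Traf6 held 7 and 5, and Traf6 and beyond held 6 and 4.

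Of the 98 replicate 1 peaks without a partner, 1 touched a base below 0.05 in replicate 2 and 97 did not. Choosing peaks with no replicate 2 peak favours this low number, and the share over the genome is not given here. The densities of the 98 peaks were mostly low, with 70 below 0.5 and 4 at 1 or more. The densest had 5.43, at percentile 87.6 of the replicate 1 list, next to the -73.2 kb site. At the stricter value of 0.001, 113 of 130 peaks of replicate 1 and 19 of 31 of replicate 2 held at least one such base. The shares over all peaks of each library are not given here, so these counts cannot be read as a trait of the locus.

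In replicate 1, footprints were more numerous per peak at the shared sites. These peaks were also denser, with a median of 2.03 against 0.286 for peaks without a partner. Footprints per peak of these classes over the genome are not given here, so the difference cannot be read as a trait of the locus. Peaks of replicate 1 with a partner held 117 footprints, 3.66 per peak, of which 54 overlapped a replicate 2 footprint (46.2%). Its peaks without a partner held 134 footprints, 1.37 per peak; 2 of these overlapped one, a low number that the choice of peaks with no replicate 2 peak largely fixes. In replicate 2 the peaks held 70 footprints, 2.26 per peak, of which 52 overlapped one of replicate 1 (74.3%). In all, 63 of 294 footprints of replicate 1 were shared (21.4%, 16.9 to 26.6), beside 35.7% over the genome, and 65 of 89 of replicate 2 (73.0%, 62.6 to 81.9), beside 67.9%. Inside peaks of their own library lay 251 of 294 footprints of replicate 1 (85.4%, beside 82.8% over the genome) and 70 of 89 of replicate 2 (78.7%, beside 83.3%). The median footprint was 10 bp wide in both libraries.

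Set against the rest of the genome, the locus stood out in replicate 1 more than in replicate 2. Among 8552 other windows of the same length holding a protein-coding gene, 1 had as many peaks as the 130 of replicate 1 (median 10), and 227 had as many as the 31 of replicate 2 (median 4). For bases below 0.05, 1 window reached the 56193 of replicate 1 and 378 the 9468 of replicate 2. The mean over the libraries was 80.5 ± 70.0 peaks (SD, n = 2), so the SD between the animals was nearly as large as the mean.

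Replicate 1 contributed 80.7% of the peaks of the locus from both libraries (73.8 to 86.5), beside 65.5% of all peaks. It contributed 76.8% of the footprints (72.2 to 80.9), beside 64.1%, and 85.6% of the bases below 0.05, beside 65.9%. Of 1009 windows with at least 50 peaks none had a higher replicate 1 share of peaks, but the highest was nearly equal (80.70% against 80.75%). Of 2509 windows with at least 10000 such bases none had a higher share of bases, the highest being 83.4%. The locus had 4.19 times as many peaks in replicate 1 as in replicate 2, where the whole lists differed 1.90 times. With the replicate 1 list reduced by density to the length of the replicate 2 list, the locus had 40 peaks in replicate 1 and 31 in replicate 2, a share of 56.3% from lists of about equal length. How far read depth, the stage of the thymocytes or the library bear on this was not tested.

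**Figure D4:**
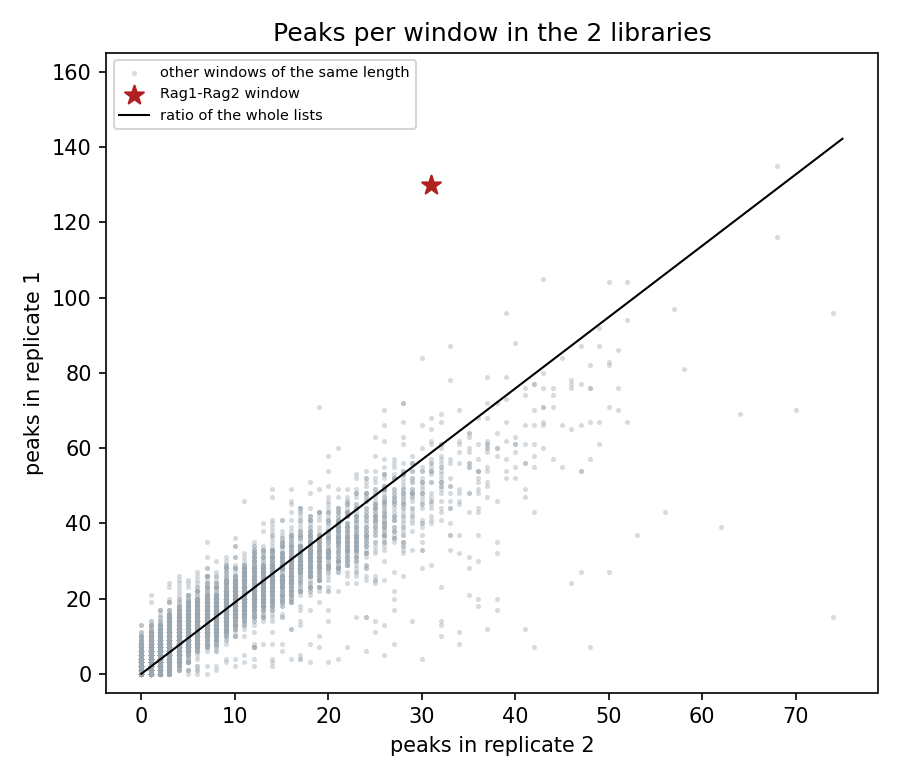
Peaks per window of the length of the Rag1-Rag2 locus, replicate 2 on the horizontal and replicate 1 on the vertical axis; the line has the ratio of the whole lists. The star at 31 and 130 is the Rag1-Rag2 locus, and the grey points are the 8552 other windows.

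Counted per gene, with 10 kb on either side of the gene body, Rag1 had 15 peaks in replicate 1 and 6 in replicate 2, at percentiles 91.8 and 81.0 of 21938 protein-coding genes. Rag2 had 30 and 5, at percentiles 98.5 and 74.4. The medians over all genes were 4 and 2 peaks. B230118H07Rik, which spans the whole run, had 115 peaks in replicate 1 and 20 in replicate 2, while Traf6 had 5 and 4 and Prr5l 14 and 8.

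The 14 other genes of V(D)J recombination, pooled, had a lower replicate 1 share of peaks than Rag1 (71.4%) or Rag2 (85.7%). By single gene, Nhej1 and Polm (80% each), Atm (77.8%) and Paxx (72.7%) were above Rag1, and Xrcc5 equalled it. The remaining genes were below Rag1, and each of the 14 was below Rag2. Of the 16 genes listed, Rag1 and Rag2 included, 15 had a promoter peak in both libraries, beside 11945 of all 21938 protein-coding genes. The exception was Xrcc6, which encodes the Ku70 end-binding protein. Each gene was scored at 1 annotated 5′ end, so peaks at other starts of Xrcc6 would not be counted. The territories of the 14 genes other than Rag1 and Rag2 held 148 peaks in replicate 1 and 94 in replicate 2, so replicate 1 contributed 61.2%, beside 64.2% over all genes. With Rag1 and Rag2 the share was 64.8% (193 and 105 peaks). These counts are sums over genes, and the Rag1 and Rag2 territories overlap, so peaks in both were counted for each gene. Dntt, which adds untemplated bases at the joins, had 25 peaks in replicate 1 and 24 in replicate 2. Hmgb1, whose protein bends DNA for the recombinase, had 39 and 25.

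The genes of end joining had fewer. Xrcc6 had 21 peaks in replicate 1 and 13 in replicate 2, and Xrcc5, for the Ku80 partner, 5 and 2. Prkdc, for the DNA-dependent protein kinase, had 4 and 2, and Dclre1c, for the Artemis nuclease that opens hairpins, 7 and 4. The ligation genes Lig4, Xrcc4, Nhej1 and Paxx had 5, 5, 8 and 8 peaks in replicate 1 and 4, 3, 2 and 3 in replicate 2. Polm and Poll, for gap-filling polymerases, had 4 and 5 in replicate 1 and 1 and 5 in replicate 2, Hmgb2 had 5 and 4, and the damage kinase gene Atm 7 and 2.

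All 14 genes listed as regulators of Rag or of the double-positive stage had a promoter peak in replicate 1 and 13 in replicate 2. Ets1 had none in replicate 2 at the annotated 5′ end scored. Over all protein-coding genes, 61.7% had a promoter peak in replicate 1 and 55.1% in replicate 2. Replicate 1 contributed 65.7% of the peaks in the territories of the 14 regulators. Among them, Satb1, for a chromatin organiser of thymocytes, had 60 peaks in replicate 1 and 14 in replicate 2, and Ets1 60 and 15. Runx1 had 60 and 35, and Tcf7 59 and 41. Satb1 and Ets1 thus had about as large an excess of replicate 1 peaks as the Rag locus, and Runx1 and Tcf7 a smaller one.

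The thymocyte, double-positive and mature T cell marker lists fitted the thymus label, and the replicate 1 share of peaks was near that of all genes in each of the T cell and B lineage lists. All 12 thymocyte markers, all 10 double-positive stage markers and all 8 mature T cell markers had promoter peaks in both libraries, with replicate 1 shares of territory peaks of 64.4%, 61.1% and 60.6%. Of 9 B lineage markers, 5 had a promoter peak in each library and 4 in both, with a share of 62.3%; all protein-coding genes had one in 61.7% and 55.1% of cases in the same libraries, so the B lineage list was near the background. Of 6 liver markers, 1 had one in replicate 1 and 0 in replicate 2.

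**Figure D5:**
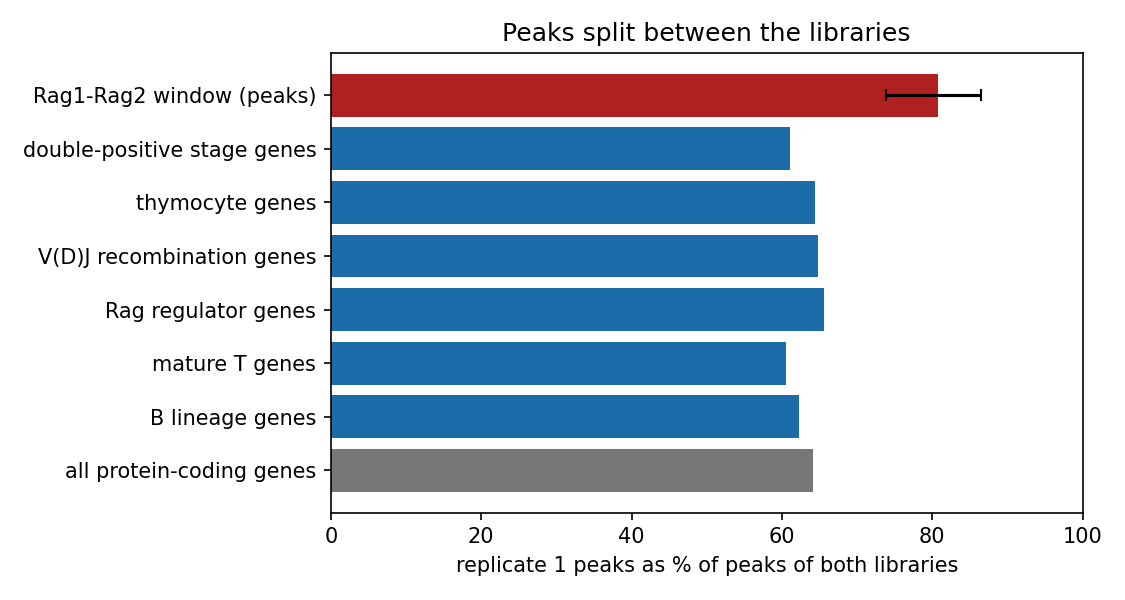
Percent of the peaks of both libraries that are replicate 1 peaks, for the Rag1-Rag2 locus and for the gene territories of each list; the error bar on the locus is the exact 95% binomial interval and covers counting error only. The locus is at 80.7% and the V(D)J, regulator, thymocyte, double-positive, mature T and B lineage lists at 60.6% to 65.7%.

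By the ratio of territory peaks in the libraries, the combined Rag1 and Rag2 territory, with 39 peaks in replicate 1 and 10 in replicate 2, had a log2 ratio of 1.91. This lay at percentile 96.2 of 974 genes with at least 20 territory peaks in replicate 1, whose median was 0.90, and 37 of them were at or above it. The 5 genes nearest to it were Rbms3 with 24 and 6 peaks, Fry with 35 and 9, Scn8a with 20 and 5, and 2900026A02Rik and Rab3a with 27 and 7 each. Likeness was measured over these 2 libraries only.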

How the data were processed

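DNase-seq files of thymus from 2 mice, 1 library per animal and 1 group, were used with the biological replicate numbers of the labels; the build is mm10, per the labels. The deposited notes state that peaks and cut rates come from each library's own filtered alignment. Which aligner and callers were used, and how deeply the libraries were read, is not given in the sources used here, so precision per value is unknown. The authors gave each peak a signal density of unstated scaling. Cut rates were deposited as false discovery rates (q-values) for stretches of bases, listed only below 0.05. Footprints were used as positions. The longer of the 2 peak lists of each library was used.

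Peaks and footprints belonged to the locus by their midpoint. Promoters were 1 kb on either side of the 5′ end and territories were gene bodies extended by 10 kb each way, over protein-coding genes of GENCODE M21 on GRCm38. Territory peaks of a list were summed over its genes, so a peak in overlapping territories was counted for each gene. Overlap needed 1 bp. Promoter letters came from RefSeq on GRCm38.p6. No test was possible with 1 group. Intervals are exact 95% Clopper-Pearson intervals. Named genes were Rag1, Rag2, genes overlapping the locus, the V(D)J list and the 5 genes nearest in library ratio; the named regulators were chosen after their values were seen. Some listed genes are not reported here by name. Members and lists were chosen with earlier results of these data known. Computation used Python 3.11.15, numpy 2.4.6, pandas 2.3.3, scipy 1.17.1 and matplotlib 3.10.9, and was tested on simulated data.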

Additional observations from a re-analysis of the deposited data

How the results depend on the processing

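No paired analysis was possible because the labels give 1 group. Depth is not stated, and with n = 2 no value has a test. The mean of 80.5 peaks in the locus became 67 with the shorter lists, 35.5 (40 and 31) with the replicate 1 list reduced to the length of replicate 2 by density, 24.5 with 10 kb flanks and 52 with only replicate 1 peaks as dense as the weakest replicate 2 peak of the locus, an alternative chosen after seeing the data. The replicate 1 share of 80.7% became 87.3% with the shorter lists and 56.3% with the reduced list, where the 2 lists are about equally long. The shared share of replicate 1 peaks, 24.6%, became 14.5% and 75% in the same order. The reduced list takes out weak peaks by construction. Territory peaks of Rag2, 17.5 ± 17.7 (SD, n = 2), became 7.5 with the reduced list.

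With 1 replicate left out, the locus had 31 to 130 peaks, 89 to 294 footprints and 9468 to 56193 bases below 0.05, and the Rag1 and Rag2 territories 6 to 15 and 5 to 30 peaks. The run of 100 peaks became 66 peaks (41.3 kb) with gaps up to 2 kb, 27 (14.9 kb) with gaps up to 1 kb, 103 with gaps up to 5 kb, 65 (50.4 kb) in the shorter list and 10 (10.3 kb) in the reduced list, all chosen after seeing the data. Both promoter peaks were present in both libraries under every alternative run.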
